A study of Mus musculus with 7 samples.

Results

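Hippocampal nuclei of Arctic mice on plain water (Arc-veh) were compared with those of WT mice on plain water (WT-veh), with each well of the first barcoding round as 1 sample. The members are the 12 single-nucleus wells that received water, 6 Arc-veh and 6 WT-veh, of 24 single-nucleus wells and 48 wells in all. They held 22632 of the 45138 nuclei that passed the filters (more than 300 and fewer than 50000 transcripts, more than 400 genes, under 1% mitochondrial transcripts). Raw transcript counts were summed over all kept nuclei of a well (whole wells), and again over the nuclei of a neuron rule, which asks for at least 2000 transcripts and at least 3 transcripts of *Slc17a7*, *Slc17a6*, *Gad1* and *Gad2* together.

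Both groups were C57BL6/J mice, singly housed and collected at 10 months of age, after 12 weeks in which the other groups of the study drank PMX205. Arc-veh mice were hemizygous for a human APP transgene with the Indiana, Swedish and Arctic mutations, and WT-veh mice carried none. The promoter that drives the transgene is not given in the sources used here. The mouse genome to which reads were aligned does not hold human APP. The labels name actinomycin D and triptolide, inhibitors of transcription, for the perfusion, while the methods name them only for the isolation of microglia. Hippocampi from divided brains were frozen before nuclei were extracted. Each well held nuclei of the hippocampal tissue of 1 mouse, 3 females (F1 to F3) and 3 males (M1 to M3) per group, so a p-value measures the spread between mice together with that between preparations. The study's reporting summary says that 1 sample of the WT group was excluded because its expression was Arctic, without naming it, and all 12 wells were kept.

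In mice that make mutant human APP, amyloid-beta collects as extracellular plaques. Microglia, the resident phagocytes of the brain, gather at plaques, lower some genes of the resting state and switch on genes of lipid handling, lysosomal breakdown and phagocytosis. Astrocytes around plaques become reactive and raise the filament protein *Gfap*, complement and protease inhibitors, and type I interferon genes are often raised in several glial types. Neurons contribute most of the RNA of hippocampal nuclei, so a sum over a whole well is mostly a neuronal profile with a glial part.

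Transcripts per well ranged from 6942872 to 23169182 in Arc-veh (median 14354432.5) and from 6088008 to 24467429 in WT-veh (median 12723040.5), over 1187 to 2220 and 1332 to 2745 nuclei. Of 20489 barcode combinations among the kept nuclei, 2020 occurred in more than 1 of the 7 sublibraries. A combination was counted as a separate nucleus in each sublibrary. The hippocampal granule neuron marker *Prox1* was present in all 12 wells at 62.3 to 112 CPM in Arc-veh and 71.9 to 107 CPM in WT-veh. CPM is the field's usual depth-scaled count, here over the library size of a well after TMM scaling by edgeR, with no correction for gene length.

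The neuron rule took 3158 nuclei (14.0% of those kept), with a median of 13232 transcripts each, and 1096 of them had exactly 3 marker transcripts, the lowest number the rule allows. A further 2048 nuclei of at least 2000 transcripts had exactly 2. The rule therefore holds the deepest neurons rather than neurons at large. Of them 50.2% ± 15.9 (SD, n = 6) were inhibitory in Arc-veh, against 58.2% ± 9.87 (n = 6) for WT-veh. A second rule was added after the data had been seen, with at least 2000 transcripts and at least 6 transcripts of *Snap25*, *Syt1* and *Rbfox3* together (pan-neuronal nuclei). It took 13483 nuclei, of which 20.9% ± 3.77 were inhibitory in Arc-veh, against 18.3% ± 5.50 for WT-veh (n = 6 each). The remaining nuclei were put in classes by at least 3 transcripts of a type's marker genes. Classes had first been formed outside the neuron rule. Of those nuclei the pan-neuronal rule also took 767 astrocyte-marked (21.4%) and 601 oligodendrocyte-marked (20.1%).

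Pan-neuronal nuclei made up 45.5% to 57.6% (median 54.0%) of the nuclei of Arc-veh wells and 57.9% to 75.6% (median 64.5%) of those of WT-veh wells. Their share was lower in every Arc-veh well than in every WT-veh well, with a mean difference of -12.8 percentage points (two-sided exact permutation test of 6 against 6 wells, p = 0.00216, the smallest this design can give, adjusted p = 0.00938 over 13 quantities). By the neuron rule the direction was the opposite, a share higher by 3.65 points in Arc-veh (exact permutation adjusted p = 0.369). Microglia-marked nuclei made up 6.08% to 9.44% (median 6.69%) in Arc-veh and 0.150% to 1.95% (median 1.17%) in WT-veh (exact permutation adjusted p = 0.00938). Oligodendrocyte-marked nuclei made up 11.7% to 14.7% (median 12.8%) in Arc-veh and 2.48% to 11.3% (median 9.86%) in WT-veh (exact permutation adjusted p = 0.00938). For both glial classes no WT-veh well reached the lowest Arc-veh well. For oligodendrocytes this depended on the added rule. By classes formed outside the neuron rule the wells overlapped, at 13.7% to 16.3% in Arc-veh and 6.08% to 14.0% in WT-veh. The shares of a well are parts of a whole, so a higher share of glia lowers that of neurons, and these tests are not independent. A loss of neurons was not tested. The astrocyte-marked share was 11.0% ± 0.731 in Arc-veh and 10.7% ± 1.53 in WT-veh wells, and that of oligodendrocyte precursors (OPC) 3.89% ± 0.854 and 4.24% ± 1.04 (n = 6 each), with overlapping wells. The OPC share differed by -0.351 points here, and by -9.73 points (exact permutation adjusted p = 0.0141) when classes were formed outside the neuron rule with *Gpc5* among the markers. Of the nuclei marked as OPC in that way 89.7% were pan-neuronal, so the larger difference is mostly one of neuronal nuclei.

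**Figure D1:**
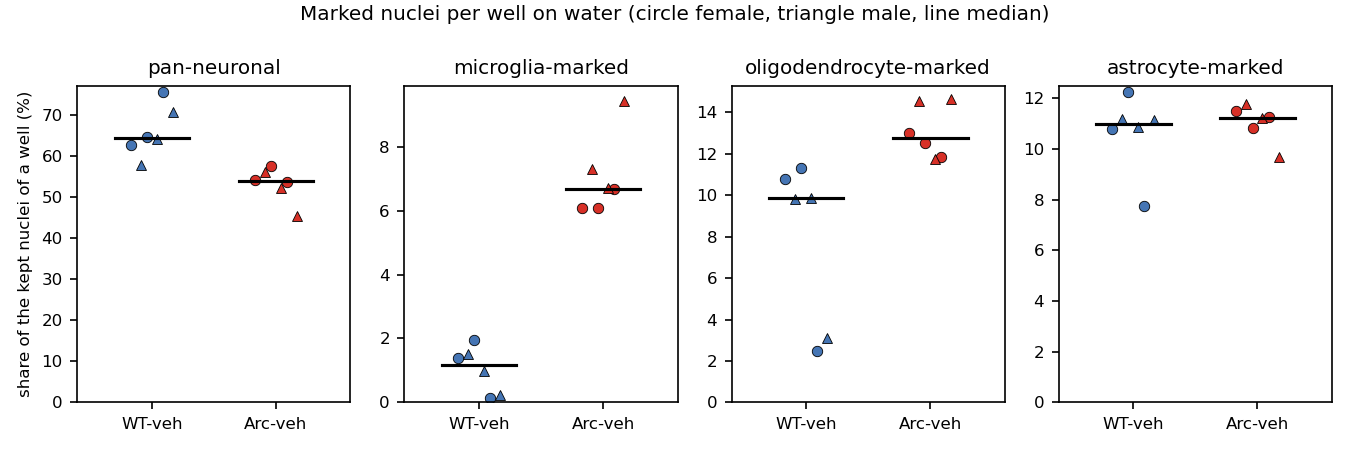
Share of the kept nuclei of each well (%, y axis) that were pan-neuronal or marked as microglia, oligodendrocyte or astrocyte, for 6 Arc-veh and 6 WT-veh wells (circle female, triangle male, line median). Arc-veh wells sit at 6.08% to 9.44% for microglia and WT-veh wells at 0.150% to 1.95%, while the astrocyte shares overlap.

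WT-veh F3 and WT-veh M3 stood apart, with 2 and 3 microglia-marked nuclei against 22 to 49 in the other WT-veh wells and 101 to 162 in Arc-veh wells. Oligodendrocyte-marked nuclei made up 2.48% and 3.10% of these wells. Without both, the differences, Arc-veh minus WT-veh, were -9.19 points for pan-neuronal, 5.59 for microglia-marked and 2.61 for oligodendrocyte-marked nuclei (exact permutation adjusted p = 0.0310, 0.0310 and 0.0413, with 210 splits). Kept nuclei per well then differed by -631 (exact permutation adjusted p = 0.0464, and 0.506 over all 12 wells). The share of pan-neuronal transcripts differed by -3.01 points (exact permutation adjusted p = 0.124, and 0.0281 over all 12 wells). Counts of called genes and of called list members are over all 12 wells, and those without both wells are given where they are named. In a sum over a well, more nuclei of a type and more RNA per nucleus cannot be told apart.

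In whole wells 15980 genes passed the filter on low counts and entered the quasi-likelihood test of edgeR, which held sex as a covariate. At an adjusted p under 0.05, 453 genes (2.83% of those tested) were higher and 52 genes (0.325%) were lower in Arc-veh. All Arc-veh wells lay above all WT-veh wells in 388 genes (2.43%) and below them in 77 (0.482%). DESeq2 called 597 and 184 genes. Without WT-veh F3 and M3, 340 were higher, 297 of them among the 453, and 15 were lower, 11 of them among the 52. Each of the 453 and of the 52 kept its sign there. The wells left are part of those that chose the genes, so this is no independent check. The median log2 fold change of the 453 was 1.31 and that of the 52 was -0.42, and over all genes tested it was 0.0088.

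The genes that rose were mostly genes that glial nuclei carry. For 287 of the 453 (63.4%) the CPM within a class was highest in microglia-marked nuclei, against 20.1% of all genes tested, and for 77 (17.0% against 8.58%) it was highest in astrocyte-marked nuclei. None of the 453 was highest in pan-neuronal nuclei, where 12.2% of all genes tested were highest. Of the 52 genes that fell, 21 (40.4%) were highest in pan-neuronal nuclei. The level of a class pooled both groups. Microglia-marked nuclei held 1127651 transcripts in Arc-veh and 126747 in WT-veh, and pan-neuronal nuclei 75417237 and 73409500. A gene raised in Arc-veh is thus favoured to rank highest in the microglial class, and the ranking is not independent of the calls. Microglia-marked nuclei supplied 1.32% of the Arc-veh transcripts and 0.159% of those of WT-veh, pooled over wells, and pan-neuronal nuclei 88.6% and 91.9%. The summed level of 8 microglial markers was 180 to 362 CPM in Arc-veh wells (median 223) and 81.4 to 111 CPM in WT-veh wells (median 94.8). How much of each gene's difference came with the number of nuclei was not tested.

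Genes on a list of reactive astrocyte genes were among those that rose most. *Gfap*, the intermediate filament of reactive astrocytes (ENSMUSG00000020932, chr11:102887336-102900912 on mm10), was at 34.4 to 74.8 CPM in Arc-veh wells (median 66.1) and at 2.81 to 6.76 CPM in WT-veh wells (median 5.06). The groups did not overlap, and the log2 fold change was 3.55 (SE 0.20, edgeR adjusted p = 2.62e-07), 11.7-fold. *Osmr*, a subunit of the oncostatin M receptor, was at 10.1 to 26.1 CPM against 1.01 to 2.40 CPM, a log2 fold change of 3.23 (SE 0.25, edgeR adjusted p = 4.61e-06). *Ggta1*, which makes the alpha-gal sugar epitope, was at 13.5 to 20.5 CPM against 2.02 to 4.08 CPM (log2 fold change 2.68, SE 0.18, edgeR adjusted p = 8.3e-07). For each of these genes the lowest Arc-veh well lay over 3-fold above the highest WT-veh well. *Serpina3n*, a secreted serine protease inhibitor, was higher by a log2 fold change of 1.64 (SE 0.24, adjusted p = 0.000786), with Arc-veh wells at 2.76 to 7.79 CPM and WT-veh wells at 1.11 to 2.24 CPM.

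Of 35 genes in a list of reactive astrocyte genes 19 were tested, 12 rose and 1 fell, and the median log2 fold change of the 19 was 1.46. The risen members also held the asparaginase-like *Aspg*, the hyaluronan receptor *Cd44*, the filament protein *Vim* and the transcription factor *Stat3*. Of the 12 risen members 6 had their highest level outside astrocyte-marked nuclei, *Osmr*, *Vim*, *Stat3* and *H2-D1* in vascular-marked, *C4b* in oligodendrocyte-marked and *Ctsb* in microglia-marked nuclei. *Fkbp5*, a chaperone induced by glucocorticoids, fell from 59.0 to 76.2 CPM in WT-veh to 50.0 to 60.0 CPM in Arc-veh (log2 fold change -0.33, SE 0.07, adjusted p = 0.0210). Without WT-veh F3 and M3, 14 of 25 tested rose and none fell. Of 20 astrocyte identity genes all were tested, 4 rose and none fell, with a median of 0.21 and 17 of 20 positive. Without both wells 2 rose, the median was 0.11 and 15 were positive. The 4 over all wells were the water channel *Aqp4*, the folate enzyme *Aldh1l1*, the receptor *Ntsr2* and the transcription factor *Sox9*. *Aqp4* was at 12.8 to 27.4 CPM in Arc-veh and 3.96 to 9.20 CPM in WT-veh (log2 fold change 1.42, SE 0.21, adjusted p = 0.000816), with no overlap. The summed level of 8 astrocyte markers was 809 to 951 CPM in Arc-veh and 743 to 943 CPM in WT-veh, and those ranges overlap. In the nuclei outside the pan-neuronal rule 1 identity gene (*Aqp4*) was higher and 2 (*Glul* and *Gpc5*) were lower, with 5 of 20 positive and a median of -0.27.

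Within the astrocyte-marked nuclei of all wells of a group together, *Gfap* was at 1389 CPM of the class in Arc-veh (4696 counts) and 147 CPM in WT-veh (307 counts). *Osmr* was at 347 and 30.1 CPM there, and *Ggta1* at 363 and 40.6 CPM. These are pooled values with no test. Astrocyte-marked nuclei held 85.9% of the *Gfap* counts of Arc-veh wells and 72.4% of those of WT-veh wells. *Gfap*, *Osmr* and *Ggta1* were not among the genes that marked the class, and the shares of astrocyte-marked nuclei in the wells overlapped. These nuclei supplied 3.97% of the Arc-veh transcripts and 2.62% of those of WT-veh, pooled over wells, and the part of that in the well sums was not tested.

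**Figure D2:**
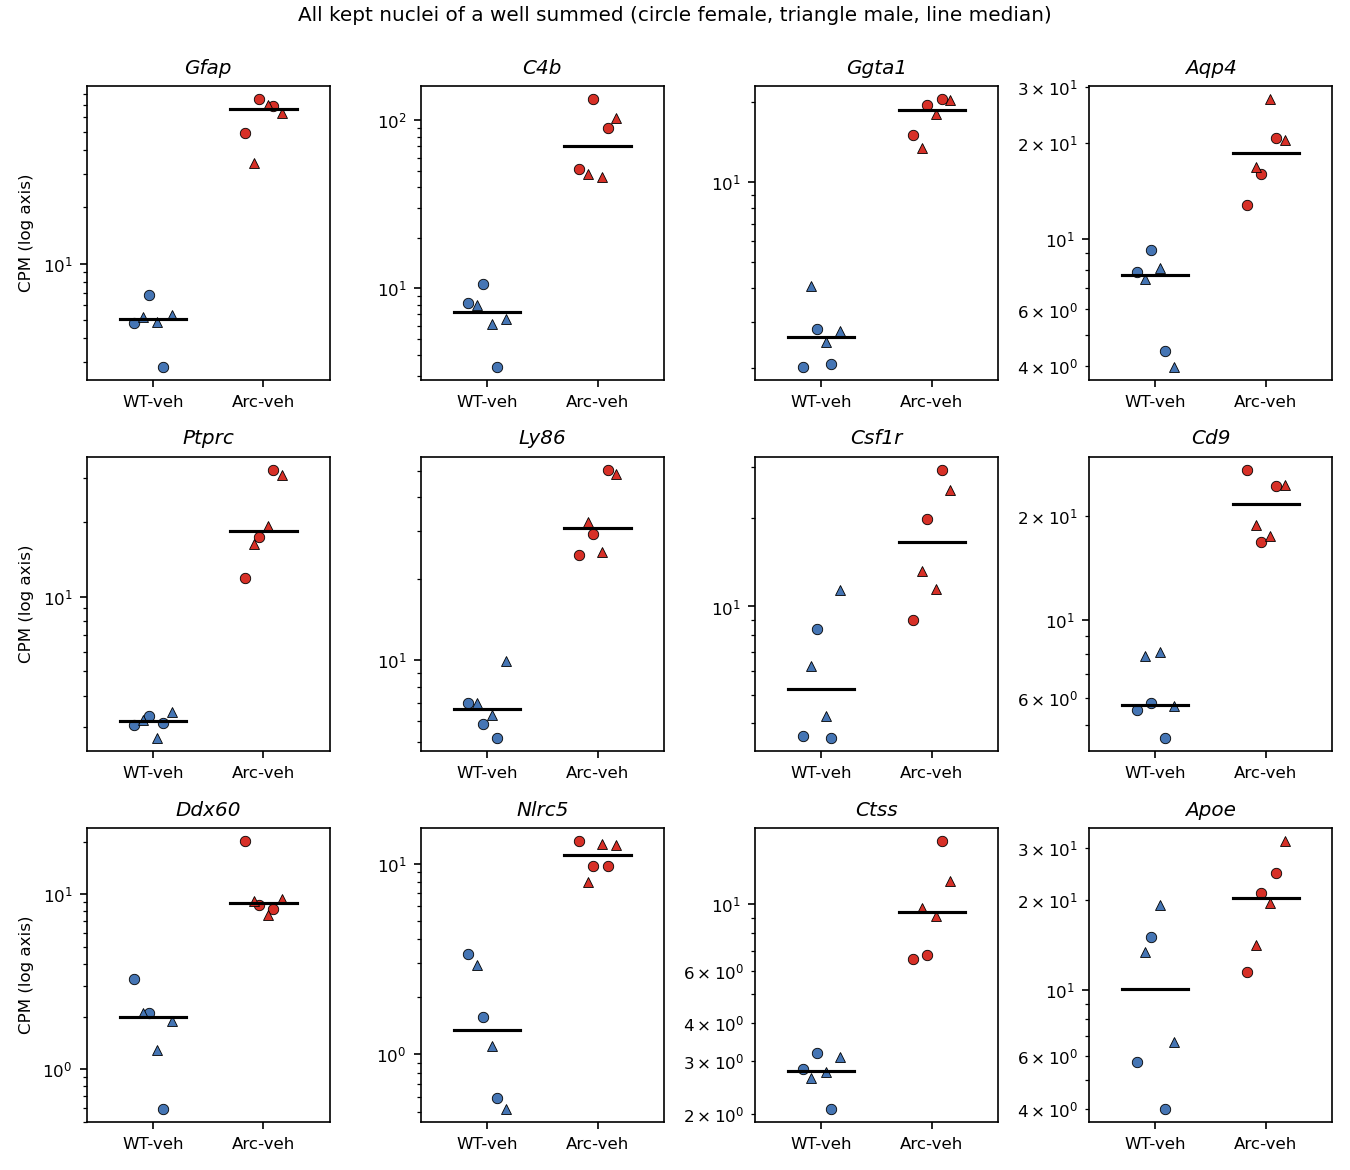
CPM (log y axis) of 12 glial genes summed over all kept nuclei of each of 6 Arc-veh and 6 WT-veh wells (circle female, triangle male, line median). *Gfap* lies at 34.4 to 74.8 CPM in Arc-veh and 2.81 to 6.76 CPM in WT-veh, and *Apoe* overlaps between the groups.

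Many microglial genes rose, from the lists of the resting state and of plaque response, by unlike amounts. Microglia-marked nuclei supplied 1.32% of the Arc-veh and 0.159% of the WT-veh transcripts, and levels within that class were not tested. Of 26 microglial identity genes 25 were tested, 18 rose and none fell, with a median log2 fold change of 1.18. With WT-veh F3 and M3 left out, 15 of 26 tested rose. *Ptprc*, the leukocyte phosphatase CD45, was at 11.9 to 32.2 CPM in Arc-veh (median 18.3) and 2.70 to 3.44 CPM in WT-veh (median 3.14). No WT-veh well came near the lowest Arc-veh well, and the log2 fold change was 2.78 (SE 0.23, edgeR adjusted p = 7.12e-06). The integrin *Itgam* (CD11b) was at 6.25 to 16.1 CPM against 2.57 to 4.13 CPM (log2 fold change 1.62, SE 0.24, adjusted p = 0.000941). The homeostatic purine receptor *P2ry12* also rose, from 7.08 to 10.0 CPM to 11.8 to 19.3 CPM, by a smaller log2 fold change of 0.81 (SE 0.14, adjusted p = 0.00382). The fractalkine receptor *Cx3cr1* gave 1.03 (SE 0.21, adjusted p = 0.0115). *Csf1r*, the survival receptor of microglia, overlapped between the groups in 1 Arc-veh well, at 9.01 to 29.2 CPM against 3.55 to 11.4 CPM (log2 fold change 1.55, SE 0.32, adjusted p = 0.0124). Its call was lost without Arc-veh M3 (edgeR adjusted p = 0.0506).

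Among the named genes that rose most were *Ly86* (2.38 on the log2 scale), a partner of a Toll-like receptor homolog, *Irf8* (2.24), a transcription factor of the myeloid lineage, and *Dock2* (2.07), a Rac activator of white blood cells, with adjusted p between 9.16e-06 and 7.18e-05. *Myo1f*, a myosin of leukocytes, rose by 2.24 on the log2 scale, and the granulocyte colony-stimulating factor receptor *Csf3r* by 2.24. The transcription factor *Runx1* rose by 1.97, the annexin *Anxa3* by 2.47 and the long noncoding RNA *AU020206* by 2.74 (adjusted p from 1.92e-05 to 0.000676 for these 5). All 6 Arc-veh wells lay above all 6 WT-veh wells for each of these 8 genes.

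Of 34 plaque-response microglial genes 25 were tested, 16 rose and none fell, with a median log2 fold change of 1.18. With WT-veh F3 and M3 left out, 16 of 27 tested rose. *Itgax* (CD11c) had 250 transcripts in the 6 Arc-veh wells and 5 in the 6 WT-veh wells, at 1.20 to 3.96 CPM against 0 to 0.120 CPM. *Clec7a*, the beta-glucan receptor dectin-1, had 206 and 4 transcripts, and *Atp6v0d2*, a subunit of the vacuolar proton pump, 105 and 3. These genes were near 0 in WT-veh, so that their fitted log2 fold changes (5.27 for *Itgax*, 5.28 for *Clec7a*) depend on the prior count. The filter on low counts asks for a minimum in as many wells as 1 group has, so these genes entered through the Arc-veh wells. How many listed members were tested and rose therefore depends in part on the filter. *Trem2*, the lipid receptor of the microglial plaque response, was at 1.31 to 6.42 CPM against 0.337 to 0.900 CPM (log2 fold change 2.76, SE 0.38, adjusted p = 0.000559). The tetraspanin *Cd9* rose from 4.59 to 8.09 CPM to 16.8 to 27.0 CPM (log2 fold change 1.75, SE 0.17, adjusted p = 1.92e-05). *Apoe*, the lipid carrier of astrocytes and plaque-response microglia, did not pass the test, at 11.5 to 31.5 CPM in Arc-veh and 4.00 to 19.3 CPM in WT-veh (log2 fold change 0.90, SE 0.31, adjusted p = 0.161). Over 24 settings, this one included, its log2 fold change ran from 0.62 to 1.16, and 1 setting called it. *Cst7* did not pass the filter on low counts.

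Lysosomal genes rose in part. Of 28 tested members 8 rose and none fell, with a median of 0.44, and 5 rose without WT-veh F3 and M3. *Ctss*, the cathepsin of antigen-presenting cells, was at 6.54 to 16.2 CPM in Arc-veh and 2.07 to 3.18 CPM in WT-veh (log2 fold change 1.86, SE 0.22, adjusted p = 0.000154). *Ctsd*, the main lysosomal aspartyl protease, was at 10.8 to 26.1 CPM against 5.28 to 7.06 CPM (log2 fold change 1.54, SE 0.23, adjusted p = 0.00109). None of the 13 tested genes of 20 in a list of proliferation genes passed the test, and their median was 0.27.

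Of 34 complement genes 23 were tested, 9 rose and none fell, with a median of 0.21, and without WT-veh F3 and M3 9 of 25 tested rose, with a median of 0.48. *C4b*, a component of the classical pathway (chr17:34728380-34743882 on mm10), was at 45.7 to 133 CPM in Arc-veh (median 70.6) and 3.40 to 10.6 CPM in WT-veh (median 7.23), a log2 fold change of 3.39 (SE 0.29, edgeR adjusted p = 7.12e-06). Every Arc-veh well was over 4-fold above every WT-veh well. The C1q chain *C1qa* had 120 and 24 transcripts in all (log2 fold change 2.06, SE 0.33, adjusted p = 0.00178), and the C3a receptor *C3ar1* 111 and 22 (log2 fold change 2.17, SE 0.38, adjusted p = 0.00304). Both were low in WT-veh and passed the filter on low counts mainly through the Arc-veh wells. Members that rose also held *C1qb*, the integrins *Itgam*, *Itgax* and *Itgb2*, and *Clu*. *C3* and the C5a receptor *C5ar1* had too few transcripts to be tested. The complement regulator *Csmd1* was at 5330 to 6604 CPM in Arc-veh and 5245 to 7526 CPM in WT-veh (log2 fold change -0.06, SE 0.10, adjusted p = 0.832).

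*C4b* counts came from several classes of nuclei. In Arc-veh 44.3% lay in astrocyte-marked and 35.5% in oligodendrocyte-marked nuclei, and in WT-veh 56.6% and 17.8%. Within oligodendrocyte-marked nuclei *C4b* was at 1070 CPM in Arc-veh (2442 counts) and 72.5 CPM in WT-veh (111 counts), again pooled with no test. In OPC-marked nuclei it was at 275 and 13.2 CPM (330 and 13 counts).

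A list of plaque-response oligodendrocyte genes held some members that rose, and no myelin gene was called. Of 16 plaque-response oligodendrocyte genes 12 were tested and 4 rose, *C4b*, *Serpina3n*, the major histocompatibility gene *H2-D1* and the receptor *Tnfrsf1a*, with a median of 0.49, and without WT-veh F3 and M3 also 4 rose. *C4b*, *Serpina3n* and *H2-D1* are also on the list of reactive astrocyte genes. Only *C4b* of the 4 had its highest level in oligodendrocyte-marked nuclei, while that of *Serpina3n* was in astrocyte-marked and those of *H2-D1* and *Tnfrsf1a* in vascular-marked nuclei. Of 20 oligodendrocyte and myelin genes 19 were tested and none was called (median 0.26, 18 of 19 positive). With WT-veh F3 and M3 left out, where oligodendrocyte-marked nuclei were few, the median was 0.04 and 12 of 19 were positive. The myelin protein gene *Mbp* was at 171 to 266 CPM in Arc-veh and 164 to 239 CPM in WT-veh, with overlapping wells (log2 fold change 0.13, SE 0.12, adjusted p = 0.652). The share of oligodendrocyte-marked nuclei was higher in Arc-veh over the same wells, while the summed level of 8 oligodendrocyte markers was 691 to 940 CPM in Arc-veh and 474 to 878 CPM in WT-veh.

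Most tested members of a list of interferon response and antigen presentation genes rose. Of 33 genes 17 were tested and 14 rose, with a median of 1.58 and 13 members in which all Arc-veh wells lay above all WT-veh wells. The other 16 members had too few transcripts to be tested, and without WT-veh F3 and M3 13 of 18 tested rose. Members that are low in WT-veh can pass the filter on low counts through the Arc-veh wells, so the share called depends in part on it. *Nlrc5*, the activator of class I histocompatibility genes, was at 8.03 to 13.1 CPM in Arc-veh and 0.516 to 3.37 CPM in WT-veh (log2 fold change 2.61, SE 0.32, adjusted p = 0.000155). *Ddx60*, an antiviral helicase, was at 7.66 to 20.1 CPM against 0.592 to 3.26 CPM (log2 fold change 2.43, SE 0.29, adjusted p = 0.000154), with Arc-veh F1 far above the other 5 Arc-veh wells. *Trim30a*, an interferon-induced regulator of signalling, was at 8.59 to 11.9 CPM against 3.68 to 5.34 CPM (log2 fold change 1.17, SE 0.14, adjusted p = 0.000145). The class I genes *H2-K1* and *B2m* gave 1.70 (SE 0.23, adjusted p = 0.000459) and 1.23 (SE 0.21, adjusted p = 0.00260), and no member fell. *Ddx60* counts lay 46.4% in astrocyte-marked and 13.5% in microglia-marked nuclei in Arc-veh, and those of *Nlrc5* 31.2% and 23.5%.

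Letters of known elements were searched in promoters. In the 250 bases before the start of each gene (RefSeq, GRCm38.p6), the core letters GAAANNGAA of an interferon-stimulated element stood on either strand in 10 of the 26 listed genes with a promoter in the table (38.5%), in 44 of 337 risen genes (13.1%) and in 868 of 11544 tested genes (7.52%). Of the 10 listed genes with a match only 4 rose, *B2m*, *Trim30a*, *Ddx60* and *Cd274*. *Stat2* was not called (log2 fold change 0.23, adjusted p = 0.247), and *Isg15*, *Bst2*, *Rsad2*, *Ifit1* and *Ifit3* had too few transcripts to be tested. The element GAGGAAGT of the myeloid factor PU.1 stood in 1 of 20 microglial identity genes, in 23 of 337 risen genes (6.82%) and in 300 of 11544 tested genes (2.60%). The sterol regulatory letters TCACNCCAC stood in 1 of 17 cholesterol genes and in 143 of 11544 tested genes (1.24%). A match describes letters only. The 150 bases before the start are given for 3 interferon genes and for *Hmgcs1*, the only cholesterol gene with a match, 5′ to 3′ on the strand of the gene, with matched letters in capitals. The windows are chr8:61927937-61928086 (plus strand) for *Ddx60*, chr2:122147537-122147686 (plus) for *B2m*, chr7:104465194-104465343 (minus) for *Trim30a* and chr13:119690201-119690350 (plus) for *Hmgcs1*.
Ddx60: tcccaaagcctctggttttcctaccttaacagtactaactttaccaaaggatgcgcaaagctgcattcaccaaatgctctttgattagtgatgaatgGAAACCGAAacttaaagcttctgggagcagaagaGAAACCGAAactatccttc
B2m: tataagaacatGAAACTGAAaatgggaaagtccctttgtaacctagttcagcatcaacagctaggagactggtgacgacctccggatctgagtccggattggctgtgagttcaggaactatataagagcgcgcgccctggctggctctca
Trim30a: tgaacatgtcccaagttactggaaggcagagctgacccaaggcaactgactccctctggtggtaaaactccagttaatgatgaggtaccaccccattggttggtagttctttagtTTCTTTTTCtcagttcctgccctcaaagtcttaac
Hmgcs1: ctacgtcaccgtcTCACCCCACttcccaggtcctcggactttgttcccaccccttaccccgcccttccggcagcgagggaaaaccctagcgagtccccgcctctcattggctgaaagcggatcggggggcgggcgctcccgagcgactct

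*Ddx60* holds the interferon core at 2 places, 53 and 19 bases before the start, *B2m* at 139 and *Trim30a*, on the other strand, at 35. The sterol letters of *Hmgcs1* begin 137 bases before the start. The RefSeq start of *Hmgcs1* was not matched by a transcript start of GENCODE, as those of the other 3 were, so this distance holds for the RefSeq start.

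Cholesterol genes rose in part in whole wells, and few were called in neuronal nuclei. Neurons and astrocytes make sterols by the mevalonate pathway, and low sterol switches on the synthesis enzymes together. All 24 listed genes of synthesis and export were tested in whole wells, 9 rose and none fell, 23 were positive and the median was 0.44. Without WT-veh F3 and M3, 4 rose, while 22 of 24 were positive and the median was 0.45. The risen members held the synthesis genes *Hmgcs1*, *Fdft1*, *Sqle*, *Msmo1* and *Nsdhl*, the sterol-regulated *Insig1* and the exporter *Abca1*. *Abca1* was at 43.4 to 63.2 CPM in Arc-veh and 20.0 to 37.7 CPM in WT-veh, without overlap (log2 fold change 0.73, SE 0.14, adjusted p = 0.0048). *Insig1* was at 6.10 to 9.17 CPM against 3.74 to 5.52 CPM, also without overlap (log2 fold change 0.72, SE 0.15, adjusted p = 0.0138).

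In pan-neuronal nuclei 15026 genes were tested, 5 were higher (0.0333%) and none was lower in Arc-veh. At an unadjusted p under 0.05 edgeR had 721 higher and 712 lower, and DESeq2 called 28 and 17. The wells of Arc-veh lay all above those of WT-veh in 46 genes (0.306%) and all below in 27 (0.18%). The 5 were *Gfap*, *C4b*, *Msmo1*, *Sqle* and *Acat2*, named here after their values were seen, and the last 3 are enzymes of sterol and acetyl-CoA metabolism. *Msmo1*, a demethylase of late sterol synthesis, was at 14.9 to 21.1 CPM in Arc-veh (median 17.1) and 8.22 to 11.7 CPM in WT-veh (median 10.8). The groups did not overlap (log2 fold change 0.79, SE 0.11, edgeR adjusted p = 0.0260). *Sqle*, squalene epoxidase, was at 8.74 to 13.1 CPM against 5.79 to 7.20 CPM (log2 fold change 0.83, SE 0.13, edgeR adjusted p = 0.0260). *Acat2*, a cytosolic thiolase that makes acetoacetyl-CoA, was at 9.41 to 13.4 CPM against 6.31 to 8.21 CPM (log2 fold change 0.74, SE 0.12, edgeR adjusted p = 0.0420). The groups were apart for each of these enzymes. Without WT-veh F3 and M3 no gene was called, with log2 fold changes of 0.76 for *Msmo1* (adjusted p = 0.163), 0.88 for *Sqle* (adjusted p = 0.143) and 0.69 for *Acat2* (adjusted p = 0.292). When single wells were left out in turn, the call of *Gfap* held each time, and that of *Msmo1* was lost for 7 wells, of *Sqle* for 8, of *C4b* for 8 and of *Acat2* for 11, with adjusted p up to 0.179.

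Of the 23 cholesterol genes tested in pan-neuronal nuclei 21 were positive, 2 were called and the median was 0.49, against a median of 0.0093 over all genes. In the nuclei outside the pan-neuronal rule 10 of 21 were positive and the median was -0.01. Only *Abca1* was called there (log2 fold change 0.68, SE 0.16, adjusted p = 0.0197), and in pan-neuronal nuclei it gave 0.10 (SE 0.14, adjusted p = 0.848). The difference between both sums was not tested. Pan-neuronal nuclei held 76.0% of the *Msmo1* counts of Arc-veh wells and 71.7% of those of WT-veh wells, below their 88.6% and 91.9% of all transcripts. Within a class the level of *Msmo1* and *Sqle* was highest in astrocyte-marked nuclei, and that of *Acat2* in OPC-marked nuclei. The median transcripts per pan-neuronal nucleus ran from 5630 to 18270.5 over Arc-veh wells and from 4944.5 to 11881 over WT-veh wells, and its part in these values was not tested. With every nucleus thinned to at most 1000 transcripts, which lowers the weight of the deep neuronal nuclei, *Sqle* and *Msmo1* in whole wells were at log2 fold changes of 0.27 (adjusted p = 0.590) and 0.17 (adjusted p = 0.679).

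**Figure D3:**
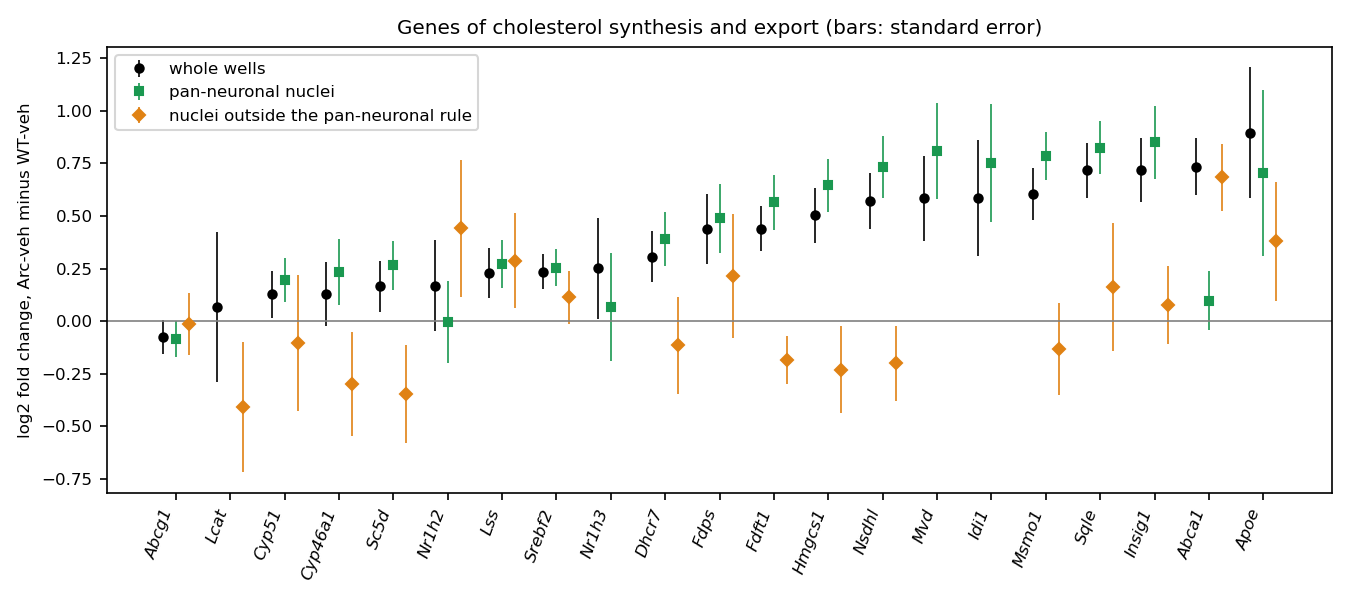
Log2 fold change, Arc-veh minus WT-veh (y axis), of 21 of the 24 listed genes of cholesterol synthesis and export in whole wells, in pan-neuronal nuclei and in the nuclei outside that rule, with bars for the standard error. Most points of pan-neuronal nuclei lie above 0, with *Msmo1* at 0.79 and *Sqle* at 0.83, while those of the other nuclei lie on both sides of it.

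*Gfap* and *C4b* were also called in pan-neuronal nuclei, at levels far below those of glia. *Gfap* was at 2.69 to 8.50 CPM in Arc-veh and 0.493 to 1.19 CPM in WT-veh (log2 fold change 2.81, SE 0.31, adjusted p = 0.00204). *C4b* was at 3.53 to 22.2 CPM against 0.739 to 2.35 CPM (log2 fold change 2.86, SE 0.43, adjusted p = 0.0260). Over all pan-neuronal nuclei of Arc-veh *Gfap* and *C4b* were at 5.71 and 11.2 CPM, against 1389 and 901 CPM in astrocyte-marked nuclei. The 8 microglial markers summed to 42.4 to 165 CPM in the pan-neuronal nuclei of Arc-veh wells and 41.1 to 96.8 CPM in those of WT-veh wells, and the 8 oligodendrocyte markers to 178 to 436 and 258 to 479 CPM. All 19 tested myelin genes were negative in this sum, with a median of -0.75 and none called. The pan-neuronal rule also took nuclei with glial markers. Their part in these values, and that of free glial RNA, was not tested.

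In the neuron rule none of 11966 genes was called in either direction (0%). At an unadjusted p under 0.05 edgeR had 326 higher and 372 lower, and DESeq2 called 2 and 3, while the groups were apart in 0.125% of genes with Arc-veh above and 0.142% with Arc-veh below. Of the 453 genes that rose in whole wells 168 were tested there, 143 with the same sign and a median of 0.30. In pan-neuronal nuclei 292 were tested, 276 with the same sign and a median of 0.42, and in the nuclei outside that rule 407 were tested and 299 called, with a median of 1.35. That last sum had 490 genes higher (4.46%) and 125 lower (1.14%) of 10976 tested, with the groups apart in 3.61% of genes above and 0.747% below. It had 478 higher and 78 lower without WT-veh F3 and M3. The sums are nested in the whole wells and so are not independent of them. Of the nuclei outside the neuron rule, which still hold most neurons, 531 genes were higher (3.51%) and 104 lower (0.688%) of 15122, with the groups apart in 2.67% above and 0.787% below, and without WT-veh F3 and M3 367 were higher and 18 lower.

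The 52 genes that fell did so by little, with a median log2 fold change of -0.42. *Rerg*, a Ras-related growth inhibitor, was at 46.1 to 66.4 CPM in Arc-veh (median 57.8) and 72.3 to 103 CPM in WT-veh (median 86.0). All Arc-veh wells lay below all WT-veh wells (log2 fold change -0.62, SE 0.10, edgeR adjusted p = 0.00228). *Kcnip2*, a subunit of A-type potassium channels, was at 51.4 to 81.9 CPM against 88.7 to 115 CPM, also without overlap (log2 fold change -0.61, SE 0.11, adjusted p = 0.00304). *Plk5*, of the polo-like kinase family, was at 8.37 to 16.4 CPM against 18.5 to 30.3 CPM (log2 fold change -0.81, SE 0.18, adjusted p = 0.0195). Its call was lost without Arc-veh M1 (edgeR adjusted p = 0.0513) and in a fit of all 24 wells (edgeR adjusted p = 0.0855). Its highest level within a class was in choroid plexus or ependymal-marked nuclei. *C1ql3*, a secreted organizer of synapses, gave -0.59 (SE 0.12, adjusted p = 0.00885), and the cyclin *Ccnd2*, required for adult neurogenesis, -0.55 (SE 0.10, adjusted p = 0.00597). For these last genes 1 Arc-veh well lay within the range of WT-veh. The call of *C1ql3* was lost in a fit of all 24 wells (edgeR adjusted p = 0.0900). The adhesion molecule *Clmp*, the transcription factor *Cebpz*, the coactivator *Pnrc1*, *Cfap100* and 3 gene models, *Gm20033*, *Gm46123* and *Gm48623*, also fell, by 0.51 to 0.60 on the log2 scale.

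**Figure D4:**
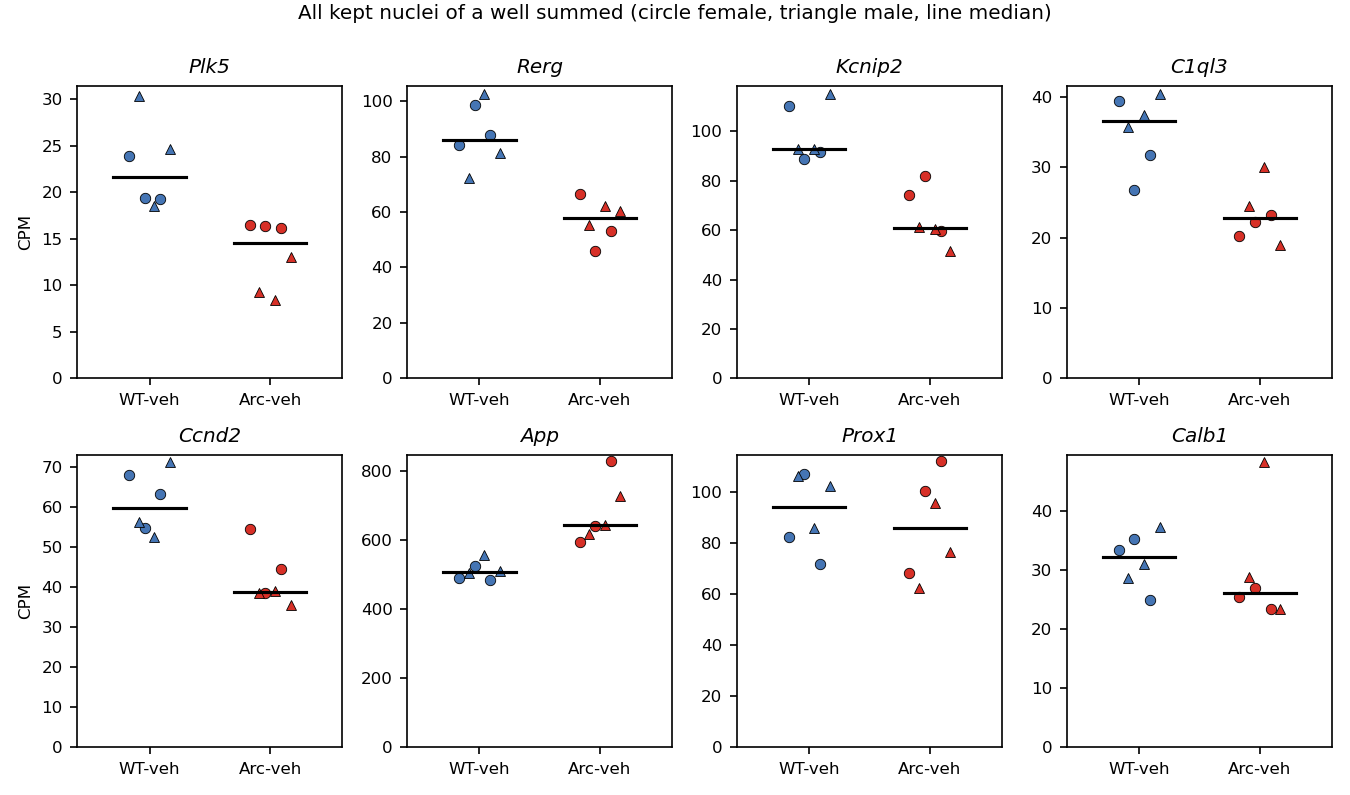
CPM (y axis from 0) of 5 genes that fell, of *App*, which rose, and of *Prox1* and *Calb1*, which did not pass the test, summed over all kept nuclei of each of 6 Arc-veh and 6 WT-veh wells (circle female, triangle male, line median). *Rerg* lies at 46.1 to 66.4 CPM in Arc-veh and 72.3 to 103 CPM in WT-veh.

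Pan-neuronal nuclei held 97.5% of the *Rerg* counts and 98.7% of the *Kcnip2* counts of Arc-veh wells, against 88.6% of all transcripts. Within a class the level of *Rerg* was highest in vascular-marked nuclei, and that of *Kcnip2* in pan-neuronal nuclei. Of the 52 genes 51 were tested in pan-neuronal nuclei, all 51 with a negative sign, a median of -0.38 and an unadjusted p under 0.05, and none was called. There *Rerg* and *Kcnip2* gave -0.52 and -0.49 (adjusted p = 0.146 for both). Without WT-veh F3 and M3 all 52 kept their sign with a median of -0.39, and 11 of them were called. There the share of neuronal transcripts was 91.2% ± 1.42 in WT-veh (n = 4) and 88.2% ± 2.17 in Arc-veh (n = 6). The 52 genes were chosen in whole wells, which hold these nuclei and these wells. Neither repeat of their sign is therefore an independent check.

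Lists of neuronal genes gave few calls. Over all genes tested 2.83% were higher and 0.325% lower, and lists of this length can hold few or none at that share. Of 14 dentate granule genes only *Plk5* was called (median -0.25), and the granule markers *Prox1* and *Calb1* gave -0.11 (SE 0.14, adjusted p = 0.773) and -0.12 (SE 0.16, adjusted p = 0.779). None of 16 pyramidal neuron genes of CA1 and CA3 was called (median -0.11), nor any of 31 genes of glutamate receptors and scaffolds (median -0.08), 19 of GABA receptors and chloride transport (median -0.07) or 22 presynaptic genes (median -0.10). In pan-neuronal nuclei the medians of these last 3 lists were 0.01, -0.03 and 0.01. Of 15 tested interneuron genes *Sox6*, which OPC also express, was called (log2 fold change 0.34, adjusted p = 0.0392). Closest to the threshold among synaptic genes was the scaffold *Dlg4* (PSD-95), at 105 to 151 CPM in Arc-veh and 144 to 173 CPM in WT-veh (log2 fold change -0.31, SE 0.08, adjusted p = 0.058).

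None of 27 tested activity-induced genes was called (median -0.15), where 2.83% of all genes tested were higher and 0.325% lower. *Fos* gave 0.55 (SE 0.27, adjusted p = 0.362), *Npas4* 0.18 (SE 0.26, adjusted p = 0.798), *Arc* 0.17 (SE 0.28, adjusted p = 0.821) and *Bdnf* -0.43 (SE 0.15, adjusted p = 0.182). *Npas4* ran from 2.81 to 11.1 CPM over Arc-veh wells and from 4.17 to 5.03 CPM over WT-veh wells, with Arc-veh F2 alone at the top. Without that well *Npas4* and *Arc* gave -0.17 and -0.10. The neuropeptide genes *Npy*, *Cck* and *Penk* gave -0.16, 0.00 and -0.12 (SE 0.20 to 0.33), with adjusted p of 0.864 or above. Of 12 tested genes of calcium buffering and neuropeptides only *Igfbp5*, a binding protein of insulin-like growth factors that glia also carry, rose (log2 fold change 0.66, SE 0.14, adjusted p = 0.0111), and none of 13 tested was called without WT-veh F3 and M3. None of 13 tested genes of the unfolded protein and stress response was called (median 0.09).

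**Figure D5:**
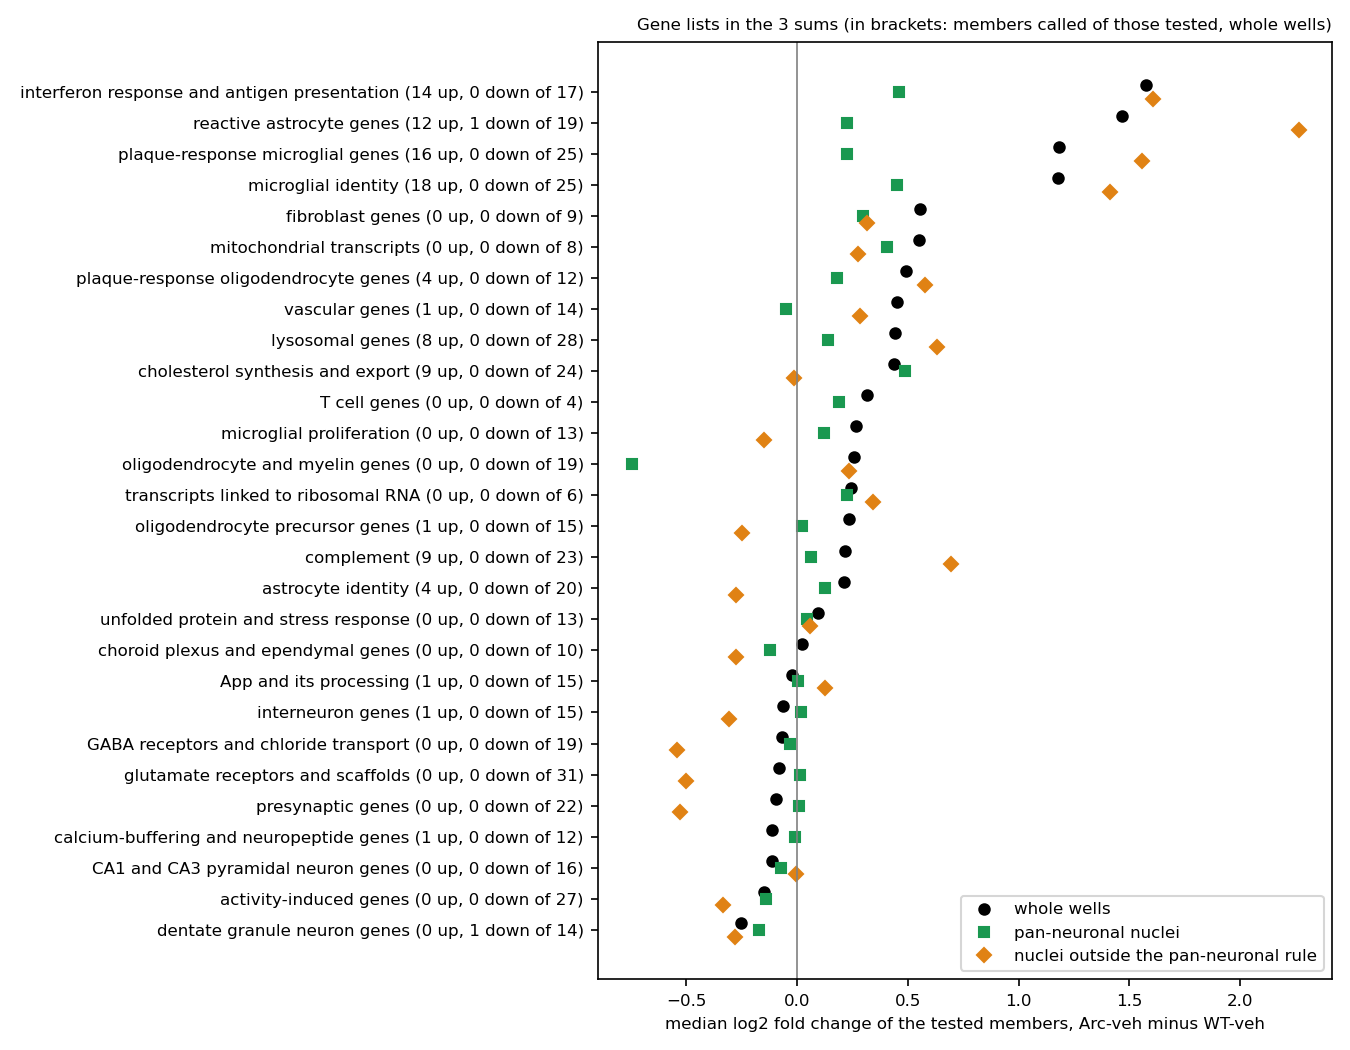
Median log2 fold change, Arc-veh minus WT-veh, of the tested members of each of 28 gene lists (x axis) in whole wells, pan-neuronal nuclei and the nuclei outside that rule, with the number called of those tested in whole wells in brackets. Interferon (14 of 17) and reactive astrocyte genes (13 of 19) lie farthest to the right, at 1.58 and 1.46 in whole wells, and in whole wells the dentate granule list lies lowest, at -0.25. A list with fewer than 3 tested members in a sum is not drawn for it.

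In whole wells *App* was the only called member of 15 genes of App and its processing (median -0.02). It was at 596 to 829 CPM in Arc-veh (median 642) and 485 to 556 CPM in WT-veh (median 507), without overlap (log2 fold change 0.40, SE 0.08, adjusted p = 0.0127). It was not called without WT-veh F3 and M3 (adjusted p = 0.0807) or without Arc-veh M3 (adjusted p = 0.0518). In pan-neuronal nuclei it gave 0.39 (SE 0.08, adjusted p = 0.146), and in the nuclei outside that rule 0.69 (SE 0.15, adjusted p = 0.0131). Oligodendrocyte-marked nuclei held 11.2% of the *App* counts of Arc-veh wells and 5.07% of those of WT-veh wells, at 2897 and 1351 CPM of the class, pooled with no test. Whether reads of the human transgene were counted as mouse *App* was not tested.

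Genes of the remaining cell types gave few calls, where 2.83% of all genes tested were higher and 0.325% lower. Without WT-veh F3 and M3 no vascular, OPC or interneuron gene of the lists was called. Of 14 tested vascular genes *Atp13a5*, a pericyte transporter, rose, at 8.86 to 28.5 CPM against 2.22 to 15.6 CPM (log2 fold change 1.39, SE 0.30, adjusted p = 0.0162), and the median was 0.45. Of 15 tested OPC genes *Sox6* rose (median 0.23). None was called among 10 genes of choroid plexus and ependyma (median 0.02, and -0.20 without WT-veh F3 and M3), 9 of fibroblasts (median 0.56) and 4 of T cells (median 0.32). T cell-marked nuclei numbered 16 over the 12 wells, 0.150% of Arc-veh and 0.00607% of WT-veh nuclei (exact permutation adjusted p = 0.0394, and 0.237 without WT-veh F3 and M3). Arc-veh M2 alone held 8 of them, 0.412% of its nuclei. Among signs of RNA quality, none of 8 mitochondrial transcripts (median 0.55) and none of 6 transcripts linked to ribosomal RNA (median 0.25) was called, and mitochondrial transcripts made up 0.0173% to 0.103% of Arc-veh wells and 0.0151% to 0.0441% of WT-veh wells. The transcript *AY036118*, linked to ribosomal RNA, was at 253 to 9140 CPM in Arc-veh wells (median 301) and 176 to 263 CPM in WT-veh wells (median 246), with 5 of 6 Arc-veh wells above all WT-veh wells (log2 fold change 2.96, SE 0.83, adjusted p = 0.0702). Arc-veh M1 and F3 stood far above the rest, at 9140 and 2348 CPM. Without the transcripts linked to ribosomal RNA 449 genes were higher and 57 lower in whole wells.

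The effect of genotype was not called as different between males and females for any gene, in whole wells or in the neuron rule. At an unadjusted p under 0.05 edgeR had 338 genes with a higher and 371 with a lower effect in males in whole wells, and 159 and 162 in the neuron rule, and DESeq2 called 1 in whole wells and none in the neuron rule. Among the smallest unadjusted p in whole wells were those of *Vwc2*, *Dnaaf3*, *Fam163b* and *Col12a1*, and in the neuron rule those of *Adcy8*, *Chsy3*, *Gm20642*, *Cobl* and *Necab1*.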

How the data were processed

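Nuclei of frozen hippocampi were barcoded by split-pool ligation (Evercode Whole Transcriptome, Parse Biosciences) in 7 sublibraries that share 48 wells. The authors made the deposited transcript counts per barcode and gene with the Parse split-pipe pipeline, and the submitters' processing notes name mm10 and bcl2fastq. The counts were raw whole numbers without normalization, for 1516119 barcodes and 55536 genes. Genotype, treatment and sex of each well come from the sample sheet, and the authors' filters on nuclei were applied.

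Counts of a well were summed over sublibraries and nuclei. Doublets were kept. Scrublet (scanpy 1.11.5, expected rate 0.06) gave 534 of the 22632 nuclei a score above 0.25, and their removal is an alternative. These sums entered edgeR 4.0.16 (R 4.3.3; TMM, filterByExpr, glmQLFit, glmQLFTest, sex as a covariate, Benjamini-Hochberg at 0.05 over all genes of a fit). The SE is the log2 fold change divided by the square root of the F statistic. Shares of nuclei were set against each other by exact two-sided permutation of wells (scipy 1.17.1), adjusted over 13 quantities. The scripts were tested on simulated data. Depth per well opens the report, and intervals for pooled class values are not given because nuclei are not replicates.

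The members, gene lists, markers and rules were chosen with earlier results of these data known. The pan-neuronal rule and the classes of the remaining nuclei (by 7 astrocyte markers and 8 for each other type) came after the data had been seen, since 89.7% of the nuclei first marked as OPC were pan-neuronal. Named genes are the 12 with the largest changes in each direction among those called with a mean log2 CPM of at least 3, the 4 of each list with the smallest p, the 5 of each interaction with the smallest p, and a fixed set of glial and neuronal genes. Other members of a list that passed the test were named after their values were seen. Some genes that the rule names are not reported here. Alternatives were other size factors, DESeq2 1.42.0, all genes without a low-count filter, a fit without sex, all 24 wells in one fit, no transcripts linked to ribosomal RNA, a block of sex and well number, wells left out, stricter filters, other marker thresholds and thinning to 1000 transcripts.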

Additional observations from a re-analysis of the deposited data

Results flagged for a closer look

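Of 138 groups of 6 wells tested, 11 had a highest or lowest well farther from its neighbour than Dixon's critical value allows, and chance gives about 5% of groups. Among whole-well values, *Ly86* was at 9.98 CPM in WT-veh M3 (5.18 to 6.97 CPM in the other WT-veh wells). Of the Arc-veh wells, M2 had *Atp6v0d2* at 2.00 CPM (others 0.777 to 1.20 CPM) and *Calb1* at 48.3 CPM (others 23.5 to 28.8 CPM), and F1 had *Ddx60* at 20.1 CPM (others 7.66 to 9.35 CPM). Arc-veh F2 had the activity-induced genes *Arc* at 11.4 CPM (others 2.73 to 5.82 CPM) and *Npas4* at 11.1 CPM (others 2.81 to 5.13 CPM). In pan-neuronal nuclei *Sqle* was at 7.20 CPM in WT-veh F3 (others 5.79 to 6.13 CPM), still below the lowest Arc-veh well.

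Of the shares of nuclei, microglia-marked nuclei made up 9.44% of Arc-veh M3 (others 6.08% to 7.30%) and astrocyte-marked nuclei 7.73% of WT-veh F3 (others 10.8% to 12.3%). Fibroblast-marked nuclei made up 1.86% of WT-veh M1 (others 0.0509% to 0.661%). T cell-marked nuclei made up 0.0364% of WT-veh M1, which is 1 nucleus, and no other WT-veh well had any.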

How the results depend on the processing

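Alternatives were taken for a part of the named genes, with 1572 values in 70 results. Other named genes, among them *P2ry12*, *Trem2*, *Insig1* and *B2m*, were not included. Of the 1572 values 1498 kept their side of the threshold, 53 lost and 21 gained the call. No value that was called in either fit changed sign. Of the 1498, 24 changed sign, for 8 genes that were called in neither fit. In whole wells *App* lost its call without WT-veh F3 and M3 (adjusted p = 0.0807) and without Arc-veh M3 (adjusted p = 0.0518), *Csf1r* without Arc-veh M3 (adjusted p = 0.0506), *Plk5* without Arc-veh M1 (adjusted p = 0.0513), and *Plk5* and *C1ql3* in a fit of all 24 wells (adjusted p = 0.0855 and 0.0900). *Acat2* in pan-neuronal nuclei kept its call in 1 of the 12 fits that left out a single well, that without Arc-veh F1. Depth limited *C3*, *C5ar1* and *Cst7*, which had too few transcripts to be tested, and genes near 0 in WT-veh.

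Genes higher and lower in whole wells numbered 453 and 52. Without a filter on low counts they numbered 1003 and 297. The lower genes numbered 184 by DESeq2, 279 with thinned nuclei and 15 without WT-veh F3 and M3. In the neuron rule, with none called, DESeq2 gave 2 and 3, no filter gave 77 and 72, and the pan-neuronal rule gave 5 higher. Outside the neuron rule no filter gave 1301 and 458, and the lower genes (104) numbered 317 by DESeq2, 41 with the replicate block, 18 without WT-veh F3 and M3 and 412 with thinning. For the difference between sexes, DESeq2 gave 1 and no filter 61 higher and 152 lower in whole wells, and no filter 22 and 4 in the neuron rule. In pan-neuronal nuclei DESeq2 gave 28 and 17, no filter 221 and 161, all 24 wells 10 and 1, the replicate block 2 higher and the wells without WT-veh F3 and M3 0. In the nuclei outside that rule no filter gave 939 and 587, and the lower genes (125) numbered 341 by DESeq2, 201 with all 24 wells, 63 with the replicate block, 78 without WT-veh F3 and M3 and 72 with more than 500 transcripts and genes. The cause of these differences was not tested.

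Leaving out 1 well at a time gave 305 (without Arc-veh F3) to 564 (without Arc-veh M2) higher and 17 (without Arc-veh M3) to 147 (without Arc-veh M2) lower genes in whole wells, and 0 to 0 in the neuron rule and for the difference between sexes. It gave 357 to 637 higher and 37 (without Arc-veh F3) to 251 (without Arc-veh F1) lower outside the neuron rule, 1 to 9 higher and 0 to 9 lower in pan-neuronal nuclei, and 373 to 581 higher and 47 to 247 lower outside that rule. The replicate block of sex and well number gave 376 higher and 38 lower in whole wells and 0 in the neuron rule. Wells with the same number came from different mice, and their deviations correlated from -0.33 to 0.27 in whole wells, -0.43 to 0.37 in the neuron rule, with 4 of 6 pairs over 0.1, and -0.48 to 0.28 outside it. Since not every pair was over 0.1 in any sum, the numbers were not taken to pair the wells.

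Shares were first taken with the neuron rule and classes by 8 markers (Arc-veh minus WT-veh, percentage points). The added rule moved nuclei in the neuron rule from 3.65 to -12.8, their transcripts from 8.57 to -3.98 and inhibitory nuclei from -8.01 to 2.59. Microglia-marked nuclei were at 6.08, and at 5.66 without WT-veh F3 and M3 (adjusted p = 0.0619). Astrocyte-marked nuclei were at -1.61, at 0.106 with the stricter filter and 0.382 in the added classes. Oligodendrocyte-marked nuclei were at 3.59, at 4.27 with the stricter filter (adjusted p = 0.0844) and 1.35 without WT-veh F3 and M3 (adjusted p = 0.124), and lost the call without any 1 of the 6 Arc-veh wells (adjusted p = 0.103 to 0.197). In these first classes 89.7% of the OPC-marked and 77.5% of the T cell-marked nuclei were pan-neuronal. So were 21.4% of the astrocyte-marked and 20.1% of the oligodendrocyte-marked nuclei. OPC-marked nuclei were at -9.73, and lost the call at -3.68 with 6 marker transcripts (adjusted p = 0.162), -7.02 without WT-veh F3 and M3 (adjusted p = 0.0619) and -0.351 in the added classes (adjusted p = 0.642). Choroid plexus or ependymal nuclei were at -0.208 and at 0.329 with 6 marker transcripts, and T cell-marked nuclei at 0.171 and 0.144 in the added classes. Leaving out 1 well gave 5.67 to 6.29 for microglia, 2.57 to 4.14 for oligodendrocytes, -10.6 to -8.37 for OPC, -1.93 to -1.07 for astrocytes (called only without WT-veh F3, adjusted p = 0.0188), -0.592 to 0.355 for choroid plexus or ependyma (0.0669, 0.0450, 0.00544 and 0.355 without Arc-veh M1, Arc-veh M2, WT-veh M1 and WT-veh M2) and 0.134 to 0.207 for T cells.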
